A study of Gasterosteus aculeatus with 34 samples.

Results

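Of the 20747 Ensembl genes counted in the forebrain of male threespine sticklebacks (Gasterosteus aculeatus), 8 varied widely from male to male in the diencephalon and less in the telencephalon. They were chosen by a rule on their own values over 17 males. A gene had to reach a mean of at least 2 CPM in both regions, CPM being the count of a gene scaled to a library of 1000000 counts. The standard deviation (SD) of L, which stands for log2(CPM + 0.1), had to be at least 0.7 over the diencephalon libraries and under 0.5 over the telencephalon libraries. The mean L of the regions had to differ by under 2, and the correlation of L between the regions over males had to be under 0.9. The spreads, levels and region differences below are therefore descriptions, and no test was made of them.

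The males were reared in the laboratory from wild-caught parents of the white ecotype, and each gave 1 diencephalon and 1 telencephalon library, 34 in all. Every male met all 4 treatments and then all of them again, 8 trials in total, and was sampled 60 minutes after the last, which defines its group. Control males (n = 4) last saw a pair of empty flasks, courtship males (n = 4) a gravid female in a flask, challenge males (n = 5) a confined rival male showing breeding colour, and tradeoff males (n = 4) a female and a rival at once. Controls had thus also met females and rivals in earlier trials. Each group is named by that last trial only.

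The diencephalon of fish holds the thalamus, the habenula and the hypothalamus, which governs feeding and, through the pituitary, hormone release and reproduction. The telencephalon lies in front of it and holds the pallium and the subpallium, which take part in learning and in social decisions. Both are mixtures of many cell types, and a small nucleus inside such a piece of tissue can carry most of the RNA of a given gene. In bulk tissue, fewer cells of a type and less RNA per cell cannot be told apart. The files pair no names with the identifiers, and 0 of 22295 identifiers matched the reference table at hand, so the genes are given by identifier, without function or sequence. For the same reason the labelled regions could not be checked against marker genes.

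Gene models received 16522465 to 34384860 counts per diencephalon library and 22802875 to 36656215 per telencephalon library. Alignments that were not unique took 3.72% to 4.73% of a diencephalon library and 11.3% to 21.9% of a telencephalon library. Counts assigned to gene models made 57.8% to 61.5% and 39.8% to 46.3%. These library differences coincided with the region. In the levels and spreads compared between regions below, tissue and library differences can therefore not be told apart. Placed between the average profiles of the diencephalon (0) and the telencephalon (1), the telencephalon library of control male 304 lay at 0.509, the others lying between 0.762 and 1.17. Its diencephalon library lay at 0.125, the others between -0.0675 and 0.0919. Without male 304 the rule again gave 8 genes, of which 7 were the same.

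Few genes met the rule, and spread in the diencephalon seldom came without spread in the telencephalon. Of 14703 Ensembl genes at 2 CPM or more in both regions, 197 had a diencephalon SD of at least 0.7. Among these, 162 also had a telencephalon SD of at least 0.7 and 20 had one from 0.5 to under 0.7. Of the 15 left, 7 had means that differed by over 2 between the regions, all lower in the diencephalon (by 2.999 to 6.69 on the log2 scale), and 8 met every condition. The same rule with the regions exchanged gave 105 genes. The telencephalon library of male 304 had the most genes over 2-fold from the median of its region, 443 of 14703. Its part in the count of 105 was not tested.

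The 8 genes were of modest abundance and stood out in spread. Their mean levels ran from 6.08 to 12.6 CPM in the diencephalon and from 3.53 to 10.3 CPM in the telencephalon, while the medians of the 14703 genes were 27.5 and 24.8 CPM. The SD of L was 0.731 to 1.10 in the diencephalon (median 0.901), where the median of all 14703 genes was 0.159. It was 0.246 to 0.497 in the telencephalon (median 0.469), where the median of all genes was 0.185. Counts per library were 28 to 1164, and counting error alone would give an SD of 0.113 to 0.151 in the diencephalon and 0.0902 to 0.151 in the telencephalon.

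The label "variable only in the diencephalon" holds in the sense of the thresholds, not in the sense of a steady telencephalon. In the telencephalon 7 of the 8 genes had an SD above the median of genes within 1.2-fold of their level, the exception being ENSGACG00000019469 at 0.246 against 0.357. The gene just inside the telencephalon threshold, ENSGACG00000013782, had an SD of 0.497, and the nearest outside, ENSGACG00000016191, had 0.526. At the diencephalon threshold, ENSGACG00000018725 lay inside at 0.731 and ENSGACG00000004774 outside at 0.681. The largest difference of mean L between the regions was 1.45 (ENSGACG00000015046), and the nearest gene left out by that condition, ENSGACG00000006322, differed by 2.999.

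**Figure D1:**
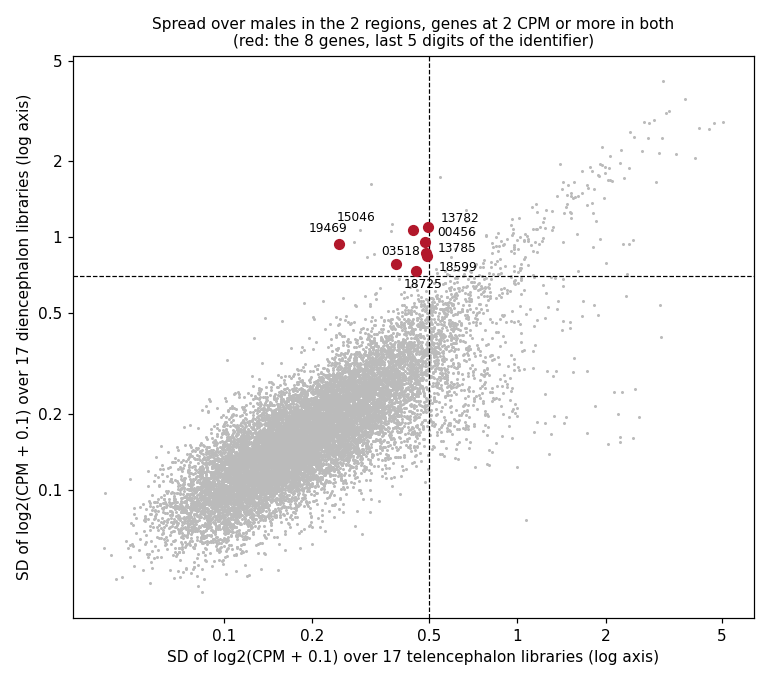
SD of log2(CPM + 0.1) over the 17 telencephalon libraries (x axis, log axis) and the 17 diencephalon libraries (y axis, log axis), each grey point 1 of 14703 genes and each red point 1 of the 8 genes chosen by the rule. Dashed lines mark the thresholds of 0.5 and 0.7; most of the 197 genes above the horizontal line also lie to the right of the vertical one, and most of the red points lie close to that line.

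For description the genes were put in 4 sets by where their high and low libraries lay. In 3 genes a single diencephalon library held over 50% of the squared deviations (ENSGACG00000019469, ENSGACG00000018599 and ENSGACG00000018725). The pair ENSGACG00000013782 and ENSGACG00000013785 was low in the same few males. ENSGACG00000003518 and ENSGACG00000015046 were each highest in a control library, as were both genes of that pair. They did not vary together in the diencephalon (r = 0.0024). Control male 308 was highest for the first, at 19.8 CPM, and lowest for the second, at 2.83 CPM. ENSGACG00000000456 followed the male between the regions. Of the 8 genes, 3 were highest in the diencephalon of control male 308, 2 in that of challenge male 298 and 1 each in those of males 302, 303 and 306. Male 308 was also the highest telencephalon library of 4 of the 8. Control male 304 was the lowest diencephalon library of 2 genes, and no other male was the lowest of more than 1.

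**Figure D2:**
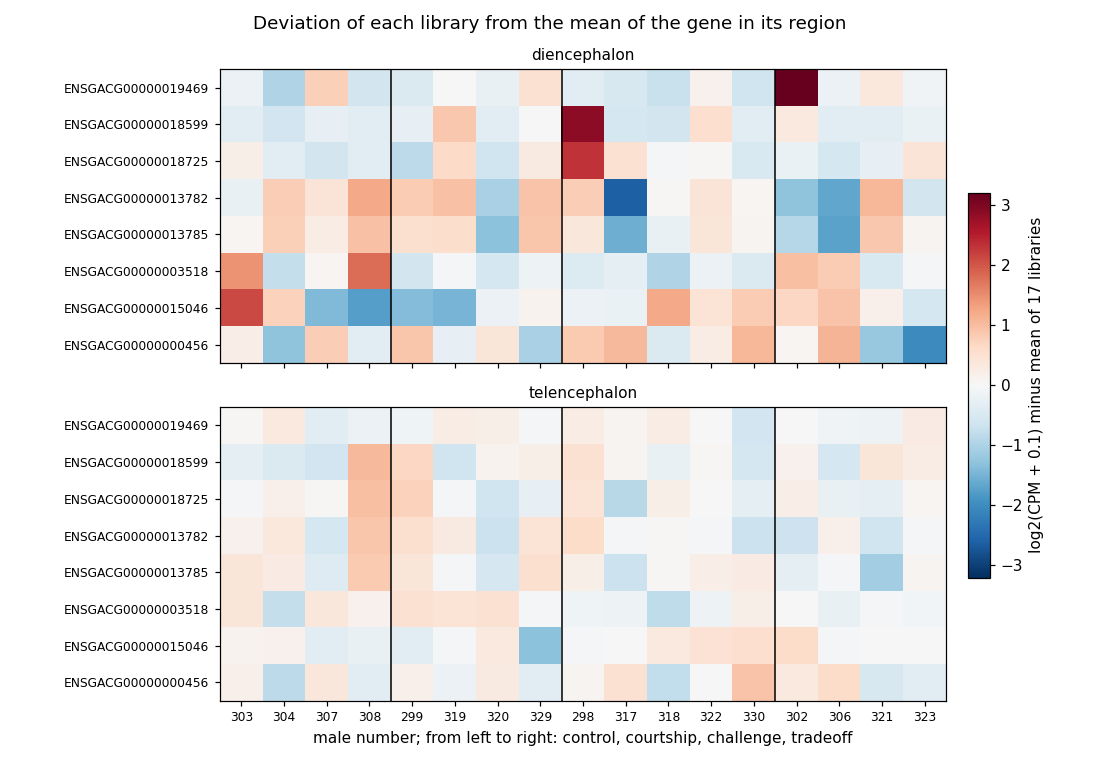
Deviation of L in each library from the mean of the gene over the 17 libraries of its region, in log2 units (colour), for the 8 genes (rows) and 17 males (columns, with lines between the treatment groups). The darkest fields are male 302 in ENSGACG00000019469 (3.19), male 298 in ENSGACG00000018599 (2.87), male 317 in ENSGACG00000013782 (-2.62) and male 298 in ENSGACG00000018725 (2.30); the telencephalon panel is paler.

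ENSGACG00000019469 had 1 library far above all others. In the diencephalon, the tradeoff males 302, 306, 321 and 323 held 65.5, 6.17, 8.998 and 6.55 CPM. Control males 303, 304, 307 and 308 held 6.21, 3.58, 12.2 and 4.64 CPM, and courtship males 299, 319, 320 and 329 held 5.16, 7.197, 5.95 and 9.91 CPM. Male 302, with 1164 counts, thus stood 5.39-fold above the next highest male, control male 307, and the other tradeoff males lay within the range of the other groups. Challenge males 298, 317, 318, 322 and 330 held 5.58, 4.94, 4.31, 7.87 and 4.49 CPM. Male 302 held 72.3% of the squared deviations, and the SD over the other 16 males was 0.466. The telencephalon library of male 302 was close to the median there, 3.84 CPM of a range of 2.47 to 4.82 CPM.

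ENSGACG00000018599 and ENSGACG00000018725 were both highest in challenge male 298. In the diencephalon, ENSGACG00000018599 was at 34.7, 3.10, 3.05, 6.84 and 3.66 CPM in challenge males 298, 317, 318, 322 and 330. ENSGACG00000018725 was at 30.6, 8.59, 5.96, 6.23 and 4.33 CPM in the same males. Male 298 lay 4.08-fold and 3.27-fold above the next highest of all males. In control males 303, 304, 307 and 308, ENSGACG00000018599 was at 3.68, 3.03, 3.86 and 3.68 CPM and ENSGACG00000018725 at 6.98, 4.80, 4.06 and 4.75 CPM. The second highest library of both genes was courtship male 319, at 8.50 and 9.37 CPM, the other courtship males lying at 3.61 to 4.62 and 3.39 to 7.47 CPM. The 4 tradeoff males held 3.58 to 5.86 CPM of the first gene and 4.10 to 8.21 CPM of the second.

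Without male 298 the diencephalon SDs of these genes were 0.413 and 0.441. In its telencephalon, male 298 held 5.31 and 5.23 CPM. The highest telencephalon library of both genes was instead control male 308, at 7.87 and 7.61 CPM, over ranges that began at 2.37 and 2.05 CPM. Over 17 males the genes correlated in the diencephalon with r = 0.82, which was 0.38 without male 298 (n = 16). In the telencephalon r was 0.47 (n = 17). The rank correlations were 0.43 in the diencephalon and 0.41 in the telencephalon. Of the 8 genes, ENSGACG00000018725 was closest to ENSGACG00000018599 by r in both regions, but not by every measure. In the diencephalon ENSGACG00000018599 had a rank correlation of 0.68 with ENSGACG00000019469, where r was 0.15. In the telencephalon ENSGACG00000018725 had an r of 0.58 with ENSGACG00000013782 and 0.62 with ENSGACG00000013785 (rank correlations 0.55 and 0.48). These correlations, and those below, are descriptions: both values of a point come from 1 library and share its depth.

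The diencephalon libraries of males 298 and 302 were at the upper end in some counts of genes that stood out, but not in all. In male 298, 12 of 14703 genes were over 4-fold above the diencephalon median, 2 of them among the 8 genes, and 22 were over 4-fold below it. In male 302, 17 were above, with 1 among the 8 genes, and 13 were below. Over all diencephalon libraries, 4 to 17 genes lay above (median 10) and 7 to 22 below. At over 2-fold in either direction male 298 had the most genes, 130, the others having 76 to 122 and male 302 having 116. The part of such library differences in the values of single genes was not tested.

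ENSGACG00000013782 and ENSGACG00000013785 rose and fell together over males. In the diencephalon, ENSGACG00000013782 was at 1.03 CPM in challenge male 317, at 2.09, 2.76 and 4.58 CPM in tradeoff males 306, 302 and 323, and at 3.33 CPM in courtship male 320. Its values in the other 12 males ran from 5.83 to 16.1 CPM, and the highest was control male 308. Each group other than the controls thus held at least 1 of these low males, but the next value up was control male 303, at 5.83 CPM. All 4 groups overlapped. ENSGACG00000013785 was at 2.40 CPM in male 317, at 2.12, 3.77 and 7.72 CPM in males 306, 302 and 323, and at 2.86 CPM in male 320. The remaining males held 6.18 to 13.97 CPM, with male 308 again highest, so that the same males were low except for male 323.

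Over the 17 males the pair correlated with r = 0.95 and a rank correlation of 0.95 in the diencephalon, and with r = 0.92 without males 306 and 317, the libraries farthest from the mean (n = 15). In the telencephalon r was 0.72 and the rank correlation 0.67 (n = 17), although the range there was narrower, at 4.65 to 14.03 CPM for ENSGACG00000013782 and 3.19 to 12.7 CPM for ENSGACG00000013785. The ratio of the first gene to the second was 0.431 to 1.28 over diencephalon libraries (median 0.986). Its SD on the log2 scale was 0.397, and counting error alone would give at least 0.184. Whether they overlap or share sequence is not given in the sources used here, and its part in their correlation was not tested. Across all 28 pairs of the 8 genes the median r was -0.01 in the diencephalon and -0.02 in the telencephalon, and r exceeded 0.5 in 2 and 4 pairs, of which 1 pair, this one, was shared.

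**Figure D3:**
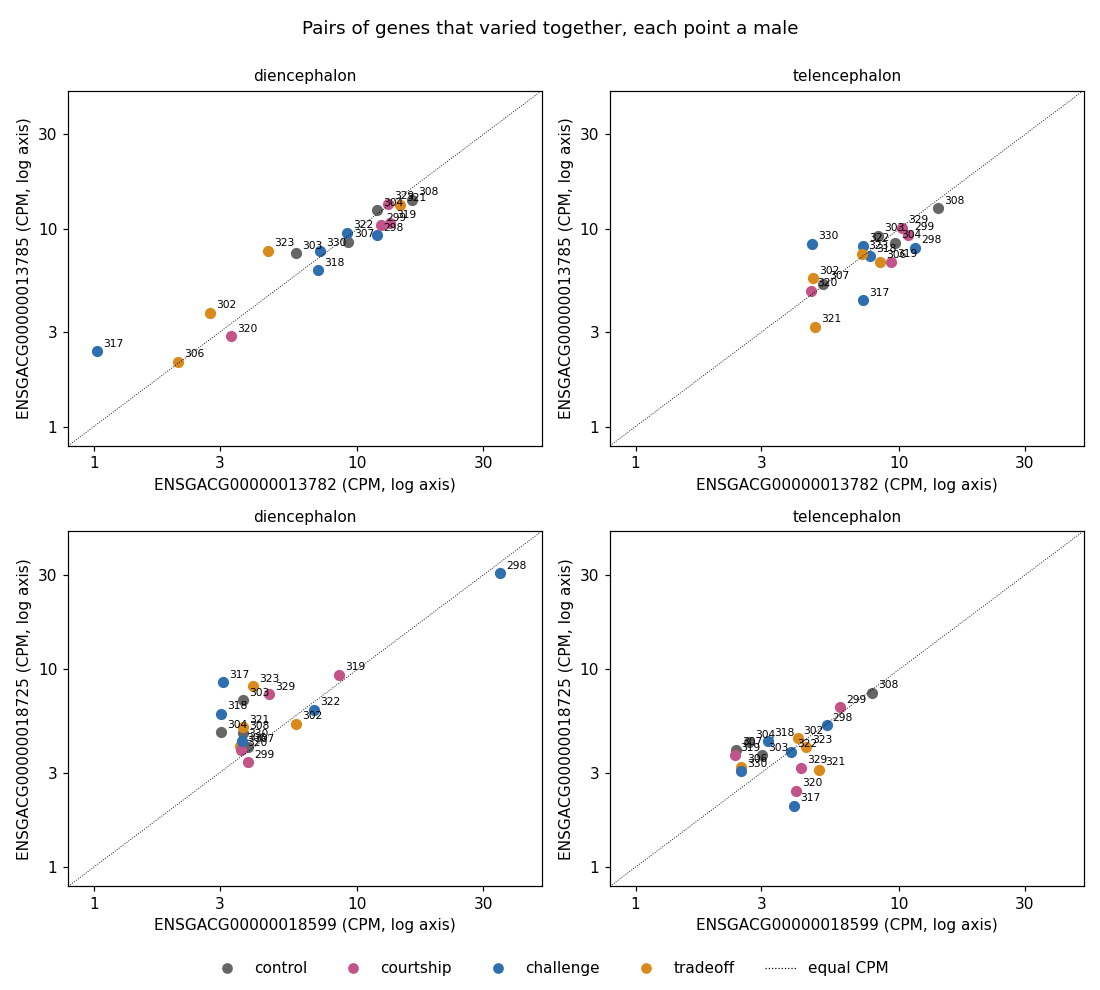
CPM of ENSGACG00000013782 against ENSGACG00000013785 (upper panels) and of ENSGACG00000018599 against ENSGACG00000018725 (lower panels) in the diencephalon (left) and telencephalon (right), log axes, each point a male labelled by its number and coloured by treatment. The upper pair follows the line of equal CPM over most males in both regions (r = 0.95 and 0.72), while the lower pair is drawn out in the diencephalon by male 298 alone.

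The low and high males of this pair were in part the same in the other region. Male 308 was highest in the telencephalon as well, at 14.03 CPM of ENSGACG00000013782 and 12.7 CPM of ENSGACG00000013785. Courtship male 320 was the lowest telencephalon library of ENSGACG00000013782, at 4.65 CPM, and held 4.86 CPM of ENSGACG00000013785. Tradeoff male 321 went the other way, with 14.5 and 13.2 CPM in the diencephalon but 4.80 and 3.19 CPM in the telencephalon. Between the regions r over males was 0.39 and 0.43, near the median of 0.41 over the 14703 genes.

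ENSGACG00000003518 reached its highest levels in diencephalon libraries of controls. Control males 303, 304, 307 and 308 held 15.6, 3.33, 5.92 and 19.8 CPM. Tradeoff males 302, 306, 321 and 323 held 11.1, 10.004, 4.01 and 5.49 CPM. Controls and tradeoff males thus each comprised high and low males. Courtship males 299, 319, 320 and 329 held 3.79, 5.55, 3.80 and 5.07 CPM, and challenge males 298, 317, 318, 322 and 330 held 4.17, 4.57, 2.88, 4.96 and 4.13 CPM. No courtship or challenge male exceeded 5.55 CPM, and control male 304 lay within the range of the challenge males, control male 307 just above it. The telencephalon showed no such split: males 303 and 308 held 4.47 and 3.77 CPM there, and the range was 1.91 to 4.86 CPM. Without male 308 the diencephalon SD was 0.653.

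ENSGACG00000015046 had the widest spread within controls. In the diencephalon, control males 303, 304, 307 and 308 held 42.4, 16.5, 3.62 and 2.83 CPM, which spans the range of all 17 males. Courtship males 299, 319, 320 and 329 held 3.69, 3.43, 8.62 and 10.5 CPM. Challenge males 298, 317, 318, 322 and 330 held 8.62, 8.48, 22.7, 13.4 and 17.3 CPM, and tradeoff males 302, 306, 321 and 323 held 15.5, 18.6, 10.9 and 6.62 CPM. All groups overlapped, and the lowest values came from controls and courtship males. In the telencephalon the gene stayed between 1.36 and 5.34 CPM, with the lowest value in courtship male 329 and the highest in tradeoff male 302. Of the 8 genes it was the one with the largest region difference, at 12.6 ± 9.70 CPM in the diencephalon and 3.65 ± 0.979 CPM in the telencephalon (SD, n = 17 each), and it was higher in the diencephalon of 16 of 17 males. It remained among the genes chosen whichever male was left out (17 of 17 cases).

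ENSGACG00000000456 differed from the rest in that its level followed the male. In the diencephalon it ranged from 1.78 CPM in tradeoff male 323 to 16.5 CPM in tradeoff male 306 (median 8.96 CPM, n = 17), so that 1 group held both ends of the range. In the telencephalon it ranged from 5.42 CPM in control male 304 to 18.3 CPM in challenge male 330 (median 10.4 CPM). Males 323, 304, 321 and 329, the lowest in the diencephalon at 1.78, 3.07, 3.22 and 3.71 CPM, held 7.57, 5.42, 6.80 and 7.57 CPM in the telencephalon. Males 306, 330 and 317, the highest in the diencephalon at 16.5, 16.2 and 15.8 CPM, held 14.7, 18.3 and 13.8 CPM. The order of males was thus largely shared and the range was wider in the diencephalon, at 9.25-fold against 3.39-fold. The correlation between the regions was 0.83, the highest of the 8 genes, the others running from -0.11 to 0.43. The rule set an upper bound on this value.

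**Figure D4:**
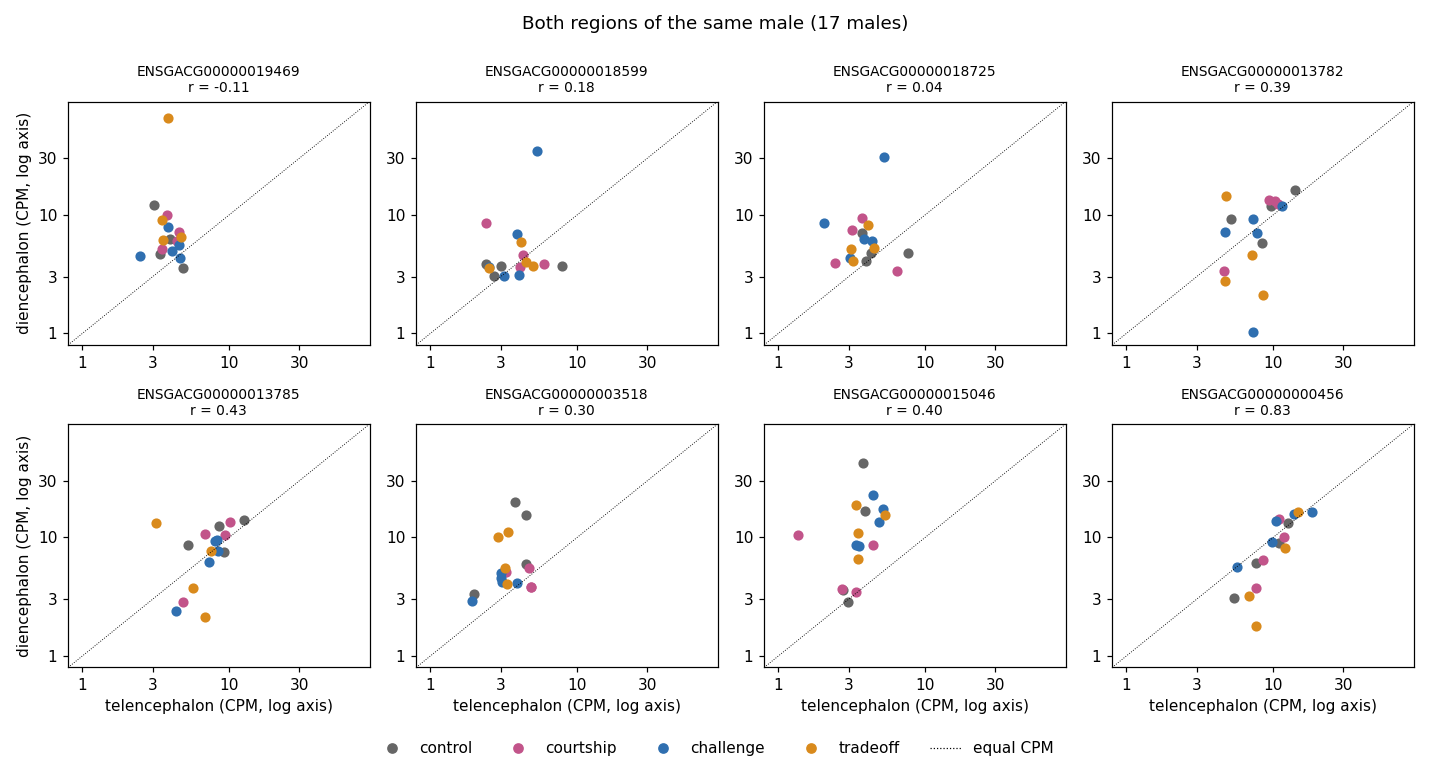
CPM in the telencephalon (x axis) and the diencephalon (y axis) of the same male for each of the 8 genes, log axes, each point a male coloured by treatment, with the correlation of L between the regions (n = 17). ENSGACG00000000456 (r = 0.83) lies along a line steeper than that of equal CPM, whereas in ENSGACG00000019469 (r = -0.11) male 302, the high diencephalon library, has a telencephalon level near the median.

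The mean levels of the regions differed little for some of the genes and more for others. Mean L was higher in the diencephalon for 6 of the 8 genes and lower for ENSGACG00000000456 and ENSGACG00000013782. ENSGACG00000019469 was at 9.96 ± 14.5 CPM in the diencephalon and 3.91 ± 0.642 CPM in the telencephalon (SD, n = 17 each), and 15 of 17 males were higher in the diencephalon. Without male 302 its diencephalon mean was 6.48 CPM and its difference of mean L 0.66 in place of 0.86. ENSGACG00000013782 was at 8.54 ± 4.73 CPM in the diencephalon and 7.99 ± 2.73 CPM in the telencephalon, with 10 of 17 males higher in the diencephalon. Without male 317 its difference of mean L went from -0.13 to 0.03. These differences entered the rule and were not tested.

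Whether the spread in the diencephalon went with the last treatment was tested with the labels, which the rule did not use. The rule did use the tested values, however, in ways that pull in 2 directions. Wide spread within groups makes a call harder. The SD of the rule also counts differences between group means, so it can favour genes whose groups differ. Within groups, the spread beyond counting error as a share of the level (edgeR) was 0.427 to 0.663 in the 8 genes. Its median over all genes was 0.126. A lack of calls can therefore not show that the 8 genes did not respond. Nor can a higher share of the 8 than of all genes at an unadjusted p show that they did. The shares of all genes below come from genes not chosen for spread. Most of the diencephalon spread lay within treatment groups: differences between group means took 12.5% (ENSGACG00000018599) to 36.0% (ENSGACG00000003518) of the squared deviations of L. In the telencephalon these shares ran from 1.77% to 31.8% for the same 2 genes. They were larger there than in the diencephalon for ENSGACG00000015046 (29.3% and 18.7%) and ENSGACG00000013785 (21.5% and 16.9%). Unrelated labels would also give group means a part of the squared deviations and leave most within groups. The share over all genes was not computed. With all 4 groups in a single test, 0 of the 8 genes passed an adjusted p of 0.05 (edgeR quasi-likelihood test, Benjamini-Hochberg adjusted over all genes), as did 0 of 18399 genes (0%). At an unadjusted p under 0.05 there were 2 of the 8, ENSGACG00000003518 and ENSGACG00000019469, beside 2.72% of all genes (500). Each had an adjusted p of 0.9998. The count of 2 was 1 without male 302 (465 of all genes) or male 308 (593). It was 3 without challenge male 317 (489) or 318 (610) and 4 without challenge male 330 (538). DESeq2 gave 0 of the 8 genes (8 of all genes), and 1 of the 8 at an unadjusted p under 0.05 (711 of 21388 genes). With limma voom these were 0 of the 8 (0 of all genes) and 0 of the 8 (439 of 18399 genes).

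The 6 pairs of treatments gave the same counts of calls in the diencephalon, 0 of the 8 genes and 0 of 18399 genes (0%) each. The percentages of all genes at an unadjusted p under 0.05 were 2.34% for courtship against control, 2.61% for challenge against control, 3.14% for tradeoff against control, 4.51% for tradeoff against courtship, 3.53% for tradeoff against challenge and 3.93% for courtship against challenge. Of the 8 genes, 1, 3, 1, 1, 1 and 0 were at that level in the same order. These counts moved with single males: with each male left out in turn they ran from 1 to 2, 1 to 3, 0 to 3, 0 to 2, 0 to 3 and 0 to 1. DESeq2 and limma voom called 0 of the 8 in every pair, and had 1, 3, 0, 0, 2 and 0 and 0 in every pair at an unadjusted p under 0.05. In the same order DESeq2 called 0, 0, 0, 4, 1 and 2 of all genes and limma voom 0 in each. At an unadjusted p under 0.05, DESeq2 had 485, 547, 671, 946, 744 and 820 of all genes. Limma voom had 402, 428, 578, 834, 630 and 690. In edgeR without single males these counts were 402 to 613, 392 to 892 and 434 to 982 for the first 3 pairs. For the others they were 650 to 1004, 537 to 944 and 512 to 1210.

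For ENSGACG00000003518, controls stood at 11.2 ± 7.81 CPM in the diencephalon (SD, n = 4), courtship males at 4.55 ± 0.897 (n = 4), challenge males at 4.14 ± 0.785 (n = 5) and tradeoff males at 7.66 ± 3.45 (n = 4). The log2 fold was -1.42 (SE 0.42) for challenge and -1.29 (SE 0.45) for courtship against control, each with an edgeR adjusted p of 0.9999. Without control male 308 these folds were -0.97 and -0.85. The groups overlapped, since control male 304 lay below 4 of the 5 challenge males. In the telencephalon the same groups stood at 3.67 ± 1.17, 4.41 ± 0.763, 2.98 ± 0.704 and 3.196 ± 0.229 CPM.

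For the genes with a single high library, the fold rested on it. ENSGACG00000019469 was at 21.8 ± 29.2 CPM after the tradeoff (SD, n = 4) and at 5.44 ± 1.44 after challenge (n = 5), a log2 fold of 1.96 (SE 0.64, edgeR adjusted p = 0.9998), which was 0.40 without male 302. Against control and courtship the fold fell from 1.65 and 1.58 to 0.10 and 0.03 without that male. ENSGACG00000018599 was at 10.3 ± 13.7 CPM after challenge (n = 5) and 3.56 ± 0.363 in controls (n = 4), a log2 fold of 1.54 (SE 0.66), which was 0.22 without male 298. ENSGACG00000018725 was at 11.1 ± 11.0 and 5.15 ± 1.27 CPM, a fold of 1.14 (SE 0.52), and 0.32 without that male. Both had an edgeR adjusted p of 0.9999.

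The other 4 genes had no pair of treatments at an unadjusted p under 0.05. In the diencephalon, control, courtship, challenge and tradeoff males stood at 10.8 ± 4.35, 10.5 ± 4.79, 7.27 ± 3.99 and 5.97 ± 5.75 CPM of ENSGACG00000013782 (SD, n = 4, 4, 5 and 4). The tradeoff males were thus lowest on average, with male 321 at 14.5 CPM among them. The log2 fold of tradeoff against control was -0.88 (SE 0.67, edgeR adjusted p = 0.9995) and that of ENSGACG00000013785 -0.69 (SE 0.54). Without male 321 these folds were -1.77 and -1.22, both then at an unadjusted p under 0.05 (edgeR adjusted p = 0.9998), and without tradeoff male 306 they were -0.59 and -0.38. For ENSGACG00000015046 these groups stood at 16.4 ± 18.5, 6.57 ± 3.57, 14.1 ± 6.05 and 12.9 ± 5.25 CPM, with a log2 fold of -1.30 (SE 0.72, edgeR adjusted p = 0.9999) for courtship against control. This fold was -0.21 without control male 303. ENSGACG00000000456 was at 7.85 ± 4.37, 8.61 ± 4.56, 12.1 ± 4.59 and 7.38 ± 6.62 CPM.

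**Figure D5:**
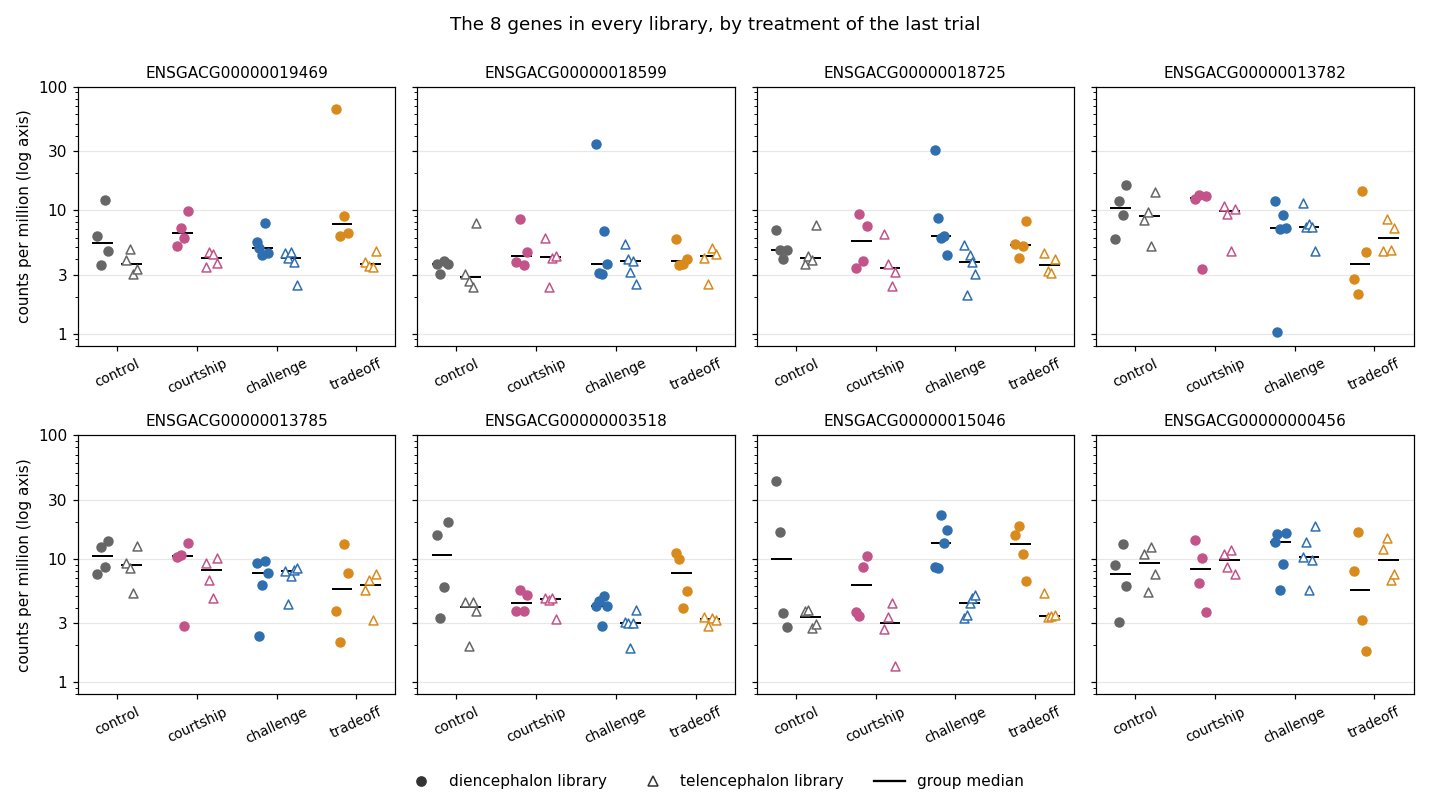
CPM (y axis, log axis) of each of the 8 genes in every library by treatment of the last trial (x axis), filled circles for the diencephalon, open triangles for the telencephalon and bars for the group median. In each gene the groups overlap in the diencephalon, and single libraries such as male 302 in ENSGACG00000019469 (65.5 CPM) and male 298 in ENSGACG00000018599 (34.7 CPM) lie far from the rest of their group. The share of all genes with such overlap is not given here, so the overlap does not set the 8 genes apart.

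In the telencephalon, 0 of the 8 genes and 0 of 18277 genes (0%) passed the test of all 4 groups in edgeR. At an unadjusted p under 0.05 there were 0 of the 8, beside 2.49% of all genes. The rule had kept the telencephalon SD of the 8 genes under 0.5, which left out genes with large group differences there. No such cap held for all genes, so these counts cannot show a weaker response of the 8. DESeq2 called 0 of the 8 and 2 of all genes, and limma voom 0 and 0. Both had 0 of the 8 at an unadjusted p under 0.05, beside 719 and 481 of all genes. A difference of the treatment response between the regions was tested as an interaction over all 34 libraries. The rule asked for more spread in the diencephalon, so it can favour genes whose groups differ there only. The test took the 2 libraries of a male as independent. In edgeR the test also fitted a single spread of each gene for both regions, though the rule chose genes whose spread differed. It gave 0 of the 8 genes and 0 of 18923 genes (0%) in edgeR, and 2 of the 8, again ENSGACG00000003518 and ENSGACG00000019469, at an unadjusted p under 0.05, beside 1.49% of all genes. DESeq2 called 0 of the 8 and 5 of all genes, and had 2 of the 8 and 377 of all genes at an unadjusted p under 0.05. Limma voom called 0 and 0, and had 0 and 179 at that level. With the male as a replicate block, edgeR called 0 of the 8 and 0 of all genes. At an unadjusted p under 0.05 this fit had 1 of the 8, beside 462 of 18923 genes.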

How the data were processed

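RNA of 2 forebrain regions of 17 males was measured by sequencing stranded mRNA libraries, per the labels' protocols. The values deposited by the authors are whole, unscaled read counts for each gene model. The submitters' processing notes name STAR and HTSeq; of these tools the versions, and of the genome the build, annotation and strand setting, are not stated in the labels or files. The 5 HTSeq summary rows were left out of library sizes and tests; no-feature reads made 35.3% of a diencephalon and 38.5% of a telencephalon library on average, ambiguous reads 1.17% and 0.631%. CPM is the count divided by the total over gene models, times 1000000. The libraries carry no stated molecular identifiers, so counting errors are lower bounds.

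Tests used edgeR 4.0.16 in R 4.3.3 (TMM, filterByExpr, robust quasi-likelihood F test, Benjamini-Hochberg over all genes at 0.05) on the 17 libraries of a region, or on 34 libraries in 8 groups for the interaction. Standard errors are the log2 fold over the square root of F. DESeq2 1.42.0, limma 3.58.1 (voom), RLE factors, no filter, only the compared groups, and each male left out in turn were alternatives. The scripts were tested on simulated counts. Within groups, the 56 pairs of libraries differed by a chi-square of at least 12.2 for each degree of freedom, so none was a duplicate. The same male gave both regions, so male numbers pair the libraries. Deviations from the group means correlated with a mean r of 0.399 over genes within a male (0.0128 to 0.603). Between males of different groups the median was 0.00653. For the male at 0.0128 this check does not bear out the pairing, which there rests on the male number alone. The genes, lists and tests were chosen with earlier results of these data known. The naming rule fixed with the design took the extreme loadings on 2 components of the 8 genes, the widest spreads and the lowest p-values; all 8 genes are named here. The marker lists fixed with it need gene symbols and were not used.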

Additional observations from a re-analysis of the deposited data

Results flagged for a closer look

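Within groups of 4 or 5 libraries, 64 sets (8 genes, 4 groups, 2 regions) were searched for a library whose gap in L to its nearest neighbour was large for the range of the group. There were 7, of which 4 were in the diencephalon, where the genes had been chosen for their spread. Chance flags about 1 in 20 sets.

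In the diencephalon, tradeoff male 302 held 65.5 CPM of ENSGACG00000019469, where the rest of its group held 6.17 to 8.998 CPM. ENSGACG00000013782 was at 1.03 CPM in challenge male 317, the others of its group lying at 7.06 to 11.9 CPM. Courtship male 320 was low in both genes of the pair, at 3.33 CPM of ENSGACG00000013782 against 12.2 to 13.3 CPM, and at 2.86 CPM of ENSGACG00000013785 against 10.4 to 13.4 CPM.

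In the telencephalon, challenge male 317 held 4.35 CPM of ENSGACG00000013785 and the others 7.26 to 8.43 CPM. ENSGACG00000003518 was at 3.28 CPM in courtship male 329, against 4.66 to 4.86 CPM. ENSGACG00000015046 was at 5.34 CPM in tradeoff male 302, against 3.39 to 3.49 CPM.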

How the results depend on the processing

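None of the 8 genes was called in any of the 9 tests of treatment under 196 combinations of a test and an alternative (0 cases), the lowest adjusted p of these genes being 0.391 (ENSGACG00000003518, DESeq2, all groups in the diencephalon). With the male as a replicate block the interaction of treatment and region again gave 0 of the 8 genes. At an unadjusted p under 0.05 it had 1 in place of 2 (462 of all genes in place of 282). The block changed no call. With only the compared groups in the fit, edgeR called 8 of all genes for tradeoff against courtship and 1 for courtship against challenge, none of them among the 8 genes. The 7 log2 folds at an unadjusted p under 0.05 kept their sign under 22 alternatives each, but not their size. In limma voom, those of tradeoff against control, courtship and challenge were 0.87, 0.68 and 1.07 for ENSGACG00000019469 (1.65, 1.58 and 1.96 in edgeR), that of challenge against control was 0.85 for ENSGACG00000018599 (1.54) and 0.87 for ENSGACG00000018725 (1.14), and those of courtship and challenge against control were -0.84 and -0.99 for ENSGACG00000003518 (-1.29 and -1.42). Without single males the counts of the 8 genes at an unadjusted p under 0.05 moved as well: for challenge against control from 3 to 1 without male 298, 304, 307 or 308, for tradeoff against control from 1 to 3 without male 321 and to 0 without male 302, 303 or 308, and for tradeoff against challenge from 1 to 3 without male 318, 323 or 330 and to 0 without male 302. For the interaction the count was 1 to 2 (242 to 381 of all genes), and for the telencephalon 0 to 1 (395 to 803 of all genes). Which genes were chosen was less stable. Leaving out each male in turn left the rule with 4 to 8 genes, with 4 without challenge male 298, 5 without challenge male 322 and 5 without tradeoff male 323. ENSGACG00000013782 was kept in 8 of 17 such sets and ENSGACG00000018599 in 9, ENSGACG00000013785 in 12 and the others in 15 to 17. These counts do not show how far a gene rested on 1 library. ENSGACG00000019469 was lost only without male 302 and ENSGACG00000018725 only without male 298, the high library of each. In 4 of the 8 genes the diencephalon SD fell under 0.7 without the library farthest from the mean. A diencephalon SD of at least 0.6 gave 15 genes and one of at least 0.8 gave 6. A pseudocount of 1 gave 6 genes, all among the 8, and TMM-scaled CPM gave the same 8.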
